A study of Mus musculus with 14 samples.

Results

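The quadriceps is the large muscle at the front of the thigh, and its messenger RNA was measured here in the resting state in wild-type male C57BL/6 mice of 4 months of age. The mice were kept on chow and on a normal light and dark schedule, received no treatment and carried wild-type HDAC3, the histone deacetylase that the study removed in its other muscles. All 3 libraries came from total RNA of muscle taken at ZT10, which is 10 hours after the lights came on and so late in the rest phase of a nocturnal animal. They are 3 of the 14 samples of a study that compared muscles with and without HDAC3 at different times of day, and they were chosen by their labels alone, as replicates 1, 2 and 3 of the resting wild-type group. Every gene row of their table was used, 24354 in all. Nothing in the labels says that the 3 libraries came from separate animals, so the spread between them may be in part technical, and with a single group no test was made.

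A skeletal muscle fibre is a single long cell packed with sarcomeres, in which thick filaments of myosin slide along thin filaments of actin. Calcium released from the sarcoplasmic reticulum binds troponin on the thin filament, tropomyosin moves aside and myosin binds actin, until a calcium pump returns the ion to its store. Fibres come in a slow type that runs on mitochondrial respiration and in fast types, of which the fastest draws mainly on phosphocreatine, glycogen and glycolysis. Most sarcomere proteins and many metabolic enzymes exist as several paralogues, some made in fast fibres, some in slow fibres or the heart and some in all cells, so the paralogue that leads each family describes the fibres in a muscle.

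Values are FPKM, sequenced fragments counted per length of transcript and scaled to the size of the library, as the authors computed them. FPKM is scaled by length, so levels may be compared between genes, except for rows of very short RNAs. On those a few reads make a high FPKM, so their ranks and shares of the sum do not measure abundance. The FPKM of all rows summed to 467027, 454359 and 484510 in replicates 1, 2 and 3, and the 3 values of a gene are always given in that order. The files give no read totals. The smallest values of rarely read genes put the depth of replicates 2 and 3 at 0.831 and 1.02 times that of replicate 1, a rough estimate that rests on the 30.8% and 30.7% of ratios between low rows that shared 1 value. Libraries stood apart in certain genes. The sums of the neutrophil and of the erythroid marker genes were highest in replicate 2, the sum of histone genes and the RNA of ribonuclease P were highest in replicate 3, and these values are given beside the results they touch.

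A few contractile genes held much of the transcriptome. The single highest gene, Tnnt3, the fast troponin T, held 3.59% ± 0.366 (SD, n = 3) of the FPKM sum, the 10 highest held 23.5% ± 0.701 and the 100 highest held 50.7% ± 1.1. Counted in each library on its own, 90, 101 and 84 genes made up 50% of the sum. A mean of 1 FPKM or more was reached by 10544 rows, 43.3% of the table, of which 10139 were protein-coding and 9827 stood at 1 FPKM or more in each of the 3 libraries. Above 10 FPKM there were 4042 genes, above 100 FPKM there were 557, and above 1000 FPKM there were 59. At the other end, 7920 rows, or 32.5%, were listed at 0 in all 3 libraries.

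Of the 10 highest genes, 8 encode parts of the sarcomere. Tnnt3, which ties the troponin complex to tropomyosin, was listed at 18473, 16294 and 15616 FPKM. Tpm1, the alpha tropomyosin, stood at 13198, 12658 and 13315 FPKM. Myl1, the fast essential light chain of myosin, stood at 14464, 12761 and 11454 FPKM. In these genes the highest library stood at 1.18, 1.05 and 1.26 times the lowest. Mylpf, the fast regulatory light chain, ranged more widely, at 14121, 11117 and 9377 FPKM. Tnnc2 and Tnni2, the calcium-binding and the inhibitory subunit of fast troponin, were close to each other in all libraries, with 9817, 10791 and 10703 FPKM for Tnnc2 and 10116, 10333 and 10813 FPKM for Tnni2. Acta1, skeletal muscle actin, was listed at 8404, 8374 and 14394 FPKM, so that replicate 3 stood apart from an otherwise closely matched pair. Myh4, the heavy chain of type IIB myosin, the fastest in the limb, stood at 7988, 8357 and 8317 FPKM. The other two of the top 10 serve relaxation and glycolysis. Pvalb, parvalbumin, a soluble calcium buffer of fast fibres, was listed at 9498, 8305 and 7176 FPKM, and Aldoa, muscle aldolase, at 7027, 8168 and 9392 FPKM.

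The next 10 genes were of another mix. Ckm, the muscle creatine kinase that regenerates ATP from phosphocreatine, was listed at 4949, 5956 and 11485 FPKM, again with replicate 3 apart. Atp2a1, the fast calcium pump SERCA1, stood at 4270, 3981 and 4441 FPKM. Slc25a4, the exchanger of ADP and ATP in the inner mitochondrial membrane, stood at 3827, 3897 and 3823 FPKM. Eno3, muscle enolase, was listed at 3367, 3649 and 3627 FPKM, and Mb, the oxygen carrier myoglobin, at 3032, 3369 and 3397 FPKM. The pump, the exchanger, enolase and myoglobin each spanned at most a 1.12-fold range, whereas creatine kinase spanned a 2.32-fold range.

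The remaining 5 of the top 20 are short non-coding RNA rows, of which Rmrp, Mir686 and Snord22 spanned wider ranges than Ckm while Snord15b and Mir703 did not. Their rank does not show that they are more abundant than the longer genes below them. The small nucleolar RNA Snord15b stood at 5832, 4293 and 4220 FPKM and Snord22 at 5913, 1856 and 2770 FPKM. Rmrp, the RNA of a ribonuclease that trims ribosomal precursors, was listed at 905, 1960 and 5467 FPKM. The hairpin rows Mir686 and Mir703 were listed at 2698, 2029 and 8392 FPKM and at 3123, 2818 and 3059 FPKM. The mature sequences that RefSeq (GRCm38.p6) gives for these hairpins are shown because both rank among the 20 highest rows, with the seed, bases 2 to 8, in capitals. Their seeds differ, and a mature miRNA is too short for an ordinary RNA library, so the FPKM of a hairpin row does not measure it.
mmu-miR-686: aUUGCUUCccagacggugaaga
mmu-miR-703: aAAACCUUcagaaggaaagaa
By RefSeq gene class, matched by symbol for 24236 of the rows (99.5%), protein-coding genes held 90.9% ± 1.42 (SD, n = 3) of the FPKM sum, small structured RNAs 7.77% ± 1.43 and long non-coding RNAs 0.770% ± 0.0201. Of the 1290 rows of small structured RNA only 50 reached 1 FPKM, and 25 were listed at 0 in one library and above 10 FPKM in another. No row carried the prefix of the genes of mitochondrial DNA, so the respiratory chain is described here by its nuclear-encoded subunits.

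Described by function, 13 gene groups with 357 genes between them held 53.5% ± 0.50 of the FPKM sum. Thin filament genes held the most, 13.7% ± 0.294, and thick filament genes held 8.29% ± 1.0, with 9.19%, 8.49% and 7.21% in the single libraries. The 80 nuclear genes of oxidative phosphorylation, nearly all for subunits of its complexes, held 9.53% ± 0.372, more than the thick filament in each library. Of them 79 stood at 10 FPKM or more. Glycolysis, with 15 genes, held 4.68% ± 0.392 and the 79 cytosolic ribosomal proteins held 4.70% ± 0.451. Calcium handling held 3.53% ± 0.309, phosphagen and adenylate exchange 3.11% ± 0.615 and the Z-disc, the anchor of thin filaments, with its cytoskeleton 2.36% ± 0.263. Genes that carry oxygen and carbon dioxide, led by myoglobin and carbonic anhydrase 3, held 1.02% ± 0.0729. Smaller shares went to glycogen turnover, with 0.961% ± 0.0165, the citric acid cycle, with 0.841% ± 0.0936, and fatty acid use, with 0.601% ± 0.103. Collagen and other matrix genes held 0.173% ± 0.0193. The summed FPKM for respiration was 44788, 44858 and 44266, the most even sum of the 13 groups. Its single genes were not unusually even, as 33 of the 80 were highest in replicate 1 and 34 in replicate 3. The median SD of log2(FPKM + 1) was 0.163 over these genes and 0.150 over all genes at 10 FPKM or more.

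**Figure D1:**
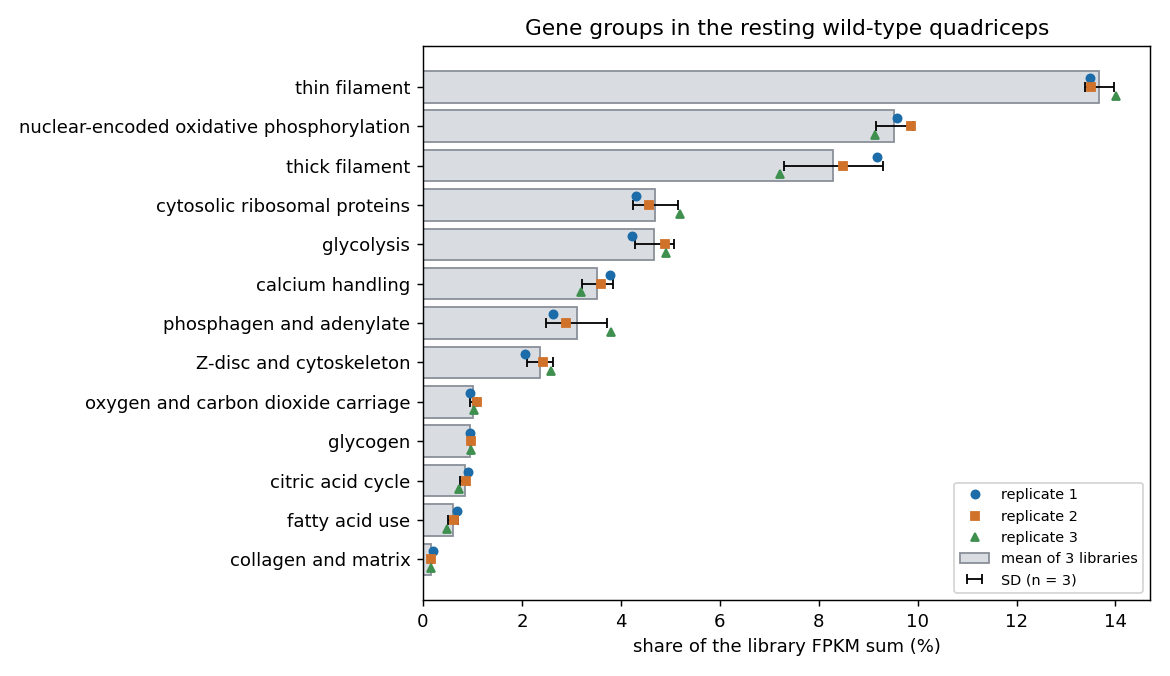
Share of the library FPKM sum (x axis, percent) held by 13 gene groups (y axis) in resting wild-type quadriceps. Bars are means of 3 libraries with SD, and symbols are the single libraries. Thin filament genes lead with 13.7%, ahead of oxidative phosphorylation with 9.53% and the thick filament with 8.29%.

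The library with the highest value differed between genes and between groups. Over the 4042 genes at 10 FPKM or more, 43.1% were highest in replicate 1, 24.5% in replicate 2 and 32.5% in replicate 3. In the citric acid cycle 14 of 17 genes were highest in replicate 1, as were 16 of 23 genes of fatty acid use, such as Cd36, the fatty acid transporter, with 237, 178 and 118 FPKM, and Lpl, lipoprotein lipase, with 142, 98.8 and 68.9 FPKM. Cpt1b, the gate of fatty acid entry into mitochondria, lay flat at 134, 135 and 133 FPKM. Of the ribosomal protein genes 47 of 79 were highest in replicate 3. Rplp1, of the ribosomal stalk, for example, was listed at 238, 328 and 748 FPKM, and Rpl38 of the large subunit at 1174, 1126 and 1231 FPKM.

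Among 68 families of paralogues, the leading member held 99% or more of the family's FPKM in 18 families, 90% or more in 40, from 60% to under 90% in 14 and under 60% in 14. The same gene led in all 3 libraries in 63 families. Of 268 members with a row, 195 stood at 1 FPKM or more and 21 were listed at 0 in all libraries. Paralogues with similar sequence can share reads, and the sources used here do not say how the counting divided such reads, so shares within the myosin heavy chain, actin, tropomyosin and globin families carry that uncertainty.

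Myosin heavy chains set the speed of a fibre, and type IIB led them. Myh4 held 80.5% ± 0.718 (SD, n = 3) of sarcomeric heavy chain FPKM. Myh1, of type IIX fibres, was listed at 1675, 1863 and 1774 FPKM and held 17.3%. The ratio of Myh4 to Myh1 was 4.77, 4.49 and 4.69, close to constant. Myh2, of the more oxidative type IIA fibres, stood at 339, 155 and 138 FPKM, so the ratio of Myh4 to Myh2 was 23.6, 54.0 and 60.2. Replicate 1 alone was high in Myh2. The slow heavy chain Myh7 was listed at 0.408, 0.393 and 1.47 FPKM, and the developmental Myh3 and Myh8 stayed below 1 FPKM in all libraries.

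The 60 bases before the start of transcription of 4 heavy chain genes and of 2 creatine kinase genes are printed because each set spans a wide range of FPKM. They come from RefSeq (GRCm38.p6, a newer build than the mm9 of the authors' alignment), read 5′ to 3′ on the gene's strand, and a TATAAA motif is in capitals where one occurs. For Myh7 the more upstream of 2 such windows is shown, and neither holds the motif.
Myh4, chr11:67237752-67237811, plus strand: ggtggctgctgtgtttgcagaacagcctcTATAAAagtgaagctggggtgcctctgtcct
Myh1, chr11:67200042-67200101, plus strand: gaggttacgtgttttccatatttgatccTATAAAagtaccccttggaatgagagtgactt
Myh2, chr11:67170967-67171026, plus strand: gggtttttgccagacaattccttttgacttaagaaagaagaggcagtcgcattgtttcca
Myh7, chr14:54994627-54994686, minus strand: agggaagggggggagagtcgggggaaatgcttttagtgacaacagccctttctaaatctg
Ckm, chr7:19411034-19411093, plus strand: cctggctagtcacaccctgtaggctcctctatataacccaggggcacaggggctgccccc
Ckb, chr12:111672339-111672398, minus strand: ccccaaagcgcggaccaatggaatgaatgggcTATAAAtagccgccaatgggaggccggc
TATAAA begins 31 bases before the start in Myh4, at a mean of 8221 FPKM, and 32 bases before it in Myh1, at 1771 FPKM. Myh2, at 211 FPKM, and Myh7, at 0.755 FPKM, lack these letters in this window. In the creatine kinases the letters were in the gene with the low level, Ckb at 1.67 FPKM, 28 bases before its start, and not in Ckm at 7463 FPKM. Over all 16425 protein-coding rows with a promoter window, 3.79% held TATAAA in these 60 bases on the gene's strand and 4.69% on either strand. The share on the gene's strand was 1.62% of the 8198 genes at 1 FPKM or more, 5.94% of the 8227 genes below it, 3 of the 20 highest protein-coding genes with a window and also 3 of the 100 highest. Only these exact letters were searched. Near matches, such as tatataa in the Ckm window and atatata in the Myh7 window not shown, were not counted. A match of letters is no evidence of a bound factor.

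In the thin filament the fast paralogue was nearly alone. Tnnt3, Tnni2 and Tnnc2 each held over 99.9% of their families. The slow troponins were listed at 5.09, 2.82 and 5.43 FPKM for Tnnt1, at 1.35, 1.16 and 1.13 FPKM for Tnni1 and at 1.95, 1.56 and 2.55 FPKM for Tnnc1. Tropomyosin was less one-sided, with 90.4% ± 1.28 from Tpm1 and 9.31% from Tpm2, the beta form, at 1190, 1248 and 1609 FPKM, and Tpm3, the slow form, at 15.8, 15.8 and 18.7 FPKM. Acta1 held 96.6% ± 1.78 of actin FPKM. Actc1, cardiac actin, which skeletal muscle makes mainly in development, was listed at 292, 68.3 and 32.6 FPKM, and replicate 1 stood far above the others. Acta1 was highest in replicate 3 and Actc1 in replicate 1, and whether reads shared between these near-identical genes bear on that contrast was not tested.

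In the thick filament the light chains were as one-sided, while the binding proteins and M-band proteins were shared. The light chain families had 98.1% ± 0.344 of essential light chain FPKM from Myl1 and 98.6% ± 0.176 of regulatory light chain FPKM from Mylpf. The slow regulatory chain Myl2 was listed at 44.4, 10.9 and 18.9 FPKM and the slow essential chain Myl3 at 81.5, 53.4 and 89.0 FPKM, so both stood far above the slow heavy chain. Myosin-binding protein C was shared between Mybpc2, the fast form, at 60.9% ± 5.76, and Mybpc1, the slow form, at 38.9%. Mybpc1 was listed at 750, 818 and 570 FPKM and was thus among the few genes named for slow muscle with a high level. The cardiac Mybpc3 was listed at 0 in all libraries. Of the M-band proteins, which cross-link thick filaments, Myom1 held 59.6% ± 2.97 and Myom2 39.9%.

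Assemblies of known proportion can be read across families. Tnnc2 and Tnni2, which join one to one in troponin, had a ratio of 0.970, 1.04 and 0.990, with a mean of 1.0 ± 0.0383 (SD, n = 3). Tnnt3, the third member of that complex, stood at 1.83, 1.58 and 1.44 times Tnni2. Tpm1 stood at 1.3, 1.23 and 1.23 times Tnni2. Actin, of which the thin filament holds several per troponin, was listed at 0.831, 0.810 and 1.33 times Tnni2, so message and protein proportions differ widely there. Each adult myosin heavy chain carries an essential and a regulatory light chain, and the summed essential chains stood at 1.45, 1.24 and 1.13 times the summed heavy chains. For the regulatory chains these ratios were 1.42, 1.07 and 0.918. The giant proteins titin and nebulin, which span the thick and the thin filament, had a ratio of Ttn to Neb of 1.62, 1.53 and 1.44.

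The Z-disc and its signalling proteins were also of the fast kind. Actn3, the alpha-actinin of fast fibres, held 89.5% ± 1.1 of its family and was listed at 1604, 1550 and 2054 FPKM, and Actn2, made in all fibres, at 182, 196 and 203 FPKM. Myoz1 held 93.1% ± 1.67 of the myozenins, which bind calcineurin at the Z-disc. Myoz2, the slow and cardiac form, stood at 106, 66.8 and 57.2 FPKM. Tcap, which caps titin, was listed at 1218, 1406 and 2077 FPKM. Several Z-disc and stress-response genes were lowest in replicate 1, among them Ankrd23, an ankyrin repeat protein that binds titin, at 520, 951 and 1193 FPKM, and Flnc, filamin C, at 39.4, 91.2 and 116 FPKM. Dystrophin held 86.6% ± 1.11 and utrophin 13.4% of their pair, with Dmd at 63.9, 57.6 and 51.7 FPKM. The sarcoglycans, which form a complex with dystrophin, had no stable leader, with Sgcd at 66.5, 70.5 and 65.3 FPKM and Sgca at 53.3, 66.1 and 75.0 FPKM.

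Calcium release and uptake genes kept to the skeletal paralogues. Atp2a1 held 99.8% ± 0.0318 of the SERCA pumps, Ryr1, the release channel, 99.9% ± 0.0558 of ryanodine receptors and Cacna1s, the voltage sensor of the surface membrane, 99.7% ± 0.0307 of L-type channel pores. Cacna1s was listed at 200, 177 and 190 FPKM and Ryr1 at 131, 132 and 183 FPKM, a ratio of 1.53, 1.34 and 1.04. Casq1, the calcium store of fast fibres, held 98.0% ± 0.313 of calsequestrin FPKM. Of the small proteins that restrain the pump, Mrln, myoregulin, led with 138, 128 and 96.0 FPKM, while Pln, phospholamban, stood at 6.46, 6.61 and 4.58 FPKM and Sln, sarcolipin, at 3.12, 0.625 and 1.02 FPKM. The junctophilins, which tie the surface membrane to the store, were shared, with Jph1 at 59.3% ± 7.67 and Jph2 at 40.7%. Jsrp1, a junctional protein of the store, was uneven, at 38.4, 60.6 and 171 FPKM.

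Within energy metabolism, 1 paralogue led by far in the families of glycolysis. Pfkm held 99.7% of phosphofructokinase FPKM, Aldoa over 99.9% of aldolase, Pgam2 99.3% of phosphoglycerate mutase, Eno3 99.7% of enolase and Pkm over 99.9% of pyruvate kinase. Ldha held 94.3% ± 0.910 of lactate dehydrogenase, with Ldhb, the form of oxidative tissues, at 88.9, 78.3 and 50.4 FPKM. Hk2, the insulin-responsive hexokinase, was listed at 67.8, 74.7 and 108 FPKM. Gpi1, the isomerase of the next step, stood at 177, 198 and 200 FPKM. Pfkm was far above both, at 1036, 1157 and 1350 FPKM. Slc2a4, the insulin-regulated glucose transporter GLUT4, held 93.9% ± 0.661 of its family, at 198, 201 and 230 FPKM, and Slc2a1, the basal transporter GLUT1, was listed at 1.62, 1.78 and 2.97 FPKM. Pygm, muscle glycogen phosphorylase, stood at 1716, 1788 and 2101 FPKM and Gys1, glycogen synthase, at 93.0, 93.9 and 115 FPKM. Lactate transport was shared between Slc16a3, the export form, with 53.1, 79.5 and 134 FPKM, and Slc16a1, with 29.5, 34.6 and 38.8 FPKM. All 3 libraries had the export form in the lead, with 70.1% ± 6.64 on average.

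Families of mitochondria and fuel choice ranged from one-sided to shared. Of the heart and muscle forms of cytochrome oxidase, Cox6a2 held 94.9% ± 1.11, Cox7a1 79.5% ± 1.60 and Cox8b 94.3% ± 2.46 of their families. By complex, the median FPKM of subunits was 256 ± 11.3 in complex I, 299 ± 25.6 in complex II, 398 ± 11.1 in complex III, 861 ± 75.4 in complex IV and 838 ± 99.4 in ATP synthase. Within complex I the mean level ran from 21.9 FPKM for Ndufa11 to 961 FPKM for Ndufa3. Pdk4, the kinase that shuts off pyruvate oxidation in fasting, was listed at 178, 194 and 73.8 FPKM and Pdk2 at 46.0, 50.7 and 60.1 FPKM, so that Pdk4 held 72.1% of the family at most and 46.1% in replicate 3. Ucp3, the muscle uncoupling protein, was also lowest there, at 60.2, 52.1 and 28.3 FPKM. The gene for heart and muscle fatty acid-binding protein, Fabp3, and the gene for the adipocyte and endothelial form, Fabp4, kept the same division in all libraries, with 56.5% ± 0.245 from Fabp3. Of creatine kinase, Ckm held 82.1% ± 6.77 and the mitochondrial Ckmt2 17.9%, a ratio of 3.26, 4.04 and 8.67 that followed Ckm.

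In 5 families the leading gene depended on the library. Besides the sarcoglycans these were the c subunits of ATP synthase, the gamma subunits of AMP-activated protein kinase, the subunits that target protein phosphatase 1 to glycogen and elongation factor 1A. Atp5g3 led the c subunits in replicate 1 at 763, 625 and 595 FPKM, and Atp5g1 in the others at 440, 657 and 670 FPKM, though the genes encode the same mature protein. Prkag3, the gamma subunit of glycolytic muscle, was listed at 31.1, 33.1 and 39.2 FPKM and Prkag1 at 32.2, 27.6 and 27.6 FPKM. Ppp1r3c was listed at 340, 202 and 201 FPKM against 209, 214 and 221 FPKM for Ppp1r3a. Eef1a2, the elongation factor of muscle and nerve, was listed at 228, 278 and 387 FPKM and Eef1a1, that of other cells, at 321, 247 and 215 FPKM. Its share therefore ran from 41.6% in replicate 1 to 64.3% in replicate 3. In these families neither gene can be named the main form from 3 libraries.

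**Figure D2:**
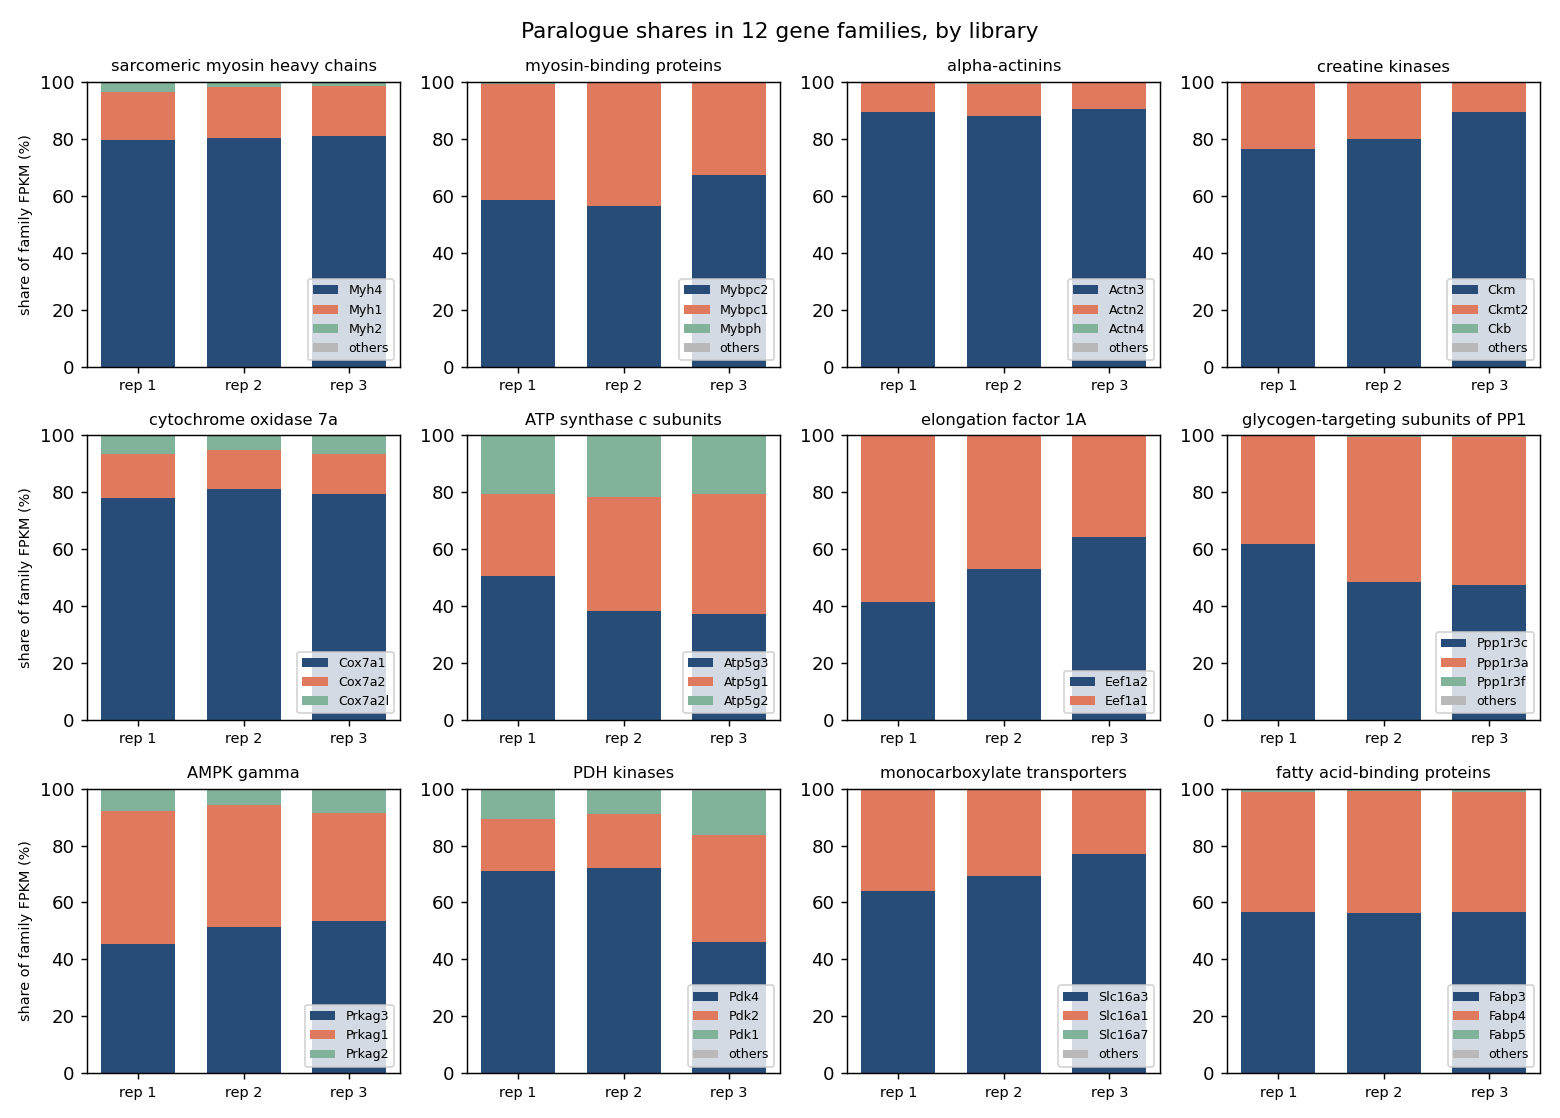
Share of each gene's FPKM in the sum of its family (y axis, percent) for 12 families in the 3 libraries (x axis). The 3 members with the highest mean share are coloured and the others are grey. Myh4 held between 79.8% and 81.3% of myosin heavy chain in all libraries, whereas the share of Eef1a2 ran from 41.6% to 64.3%.

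Genes that regulate transcription and splicing were a small part of the RNA. The 238 listed regulators together held 0.613% ± 0.0187 (SD, n = 3) of the FPKM sum, with a median of 5.03 FPKM. Of them 183 stood at 1 FPKM or more, 71 at 10 or more and 5 at 100 or more, and 14 were listed at 0 in all libraries. Those above 100 FPKM were Mbnl1, Mef2c, Atf4, Nfe2l1 and Mbnl2. Of the 183, 91 were highest in replicate 3, 49 in replicate 2 and 43 in replicate 1, where over all 10544 genes at 1 FPKM or more the shares were 35.4%, 26.3% and 38.3%.

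Myogenic factors were those of mature fibres. Myf6, the family member kept in adult fibres, was listed at 59.1, 75.0 and 83.1 FPKM. Myod1, which starts the muscle programme, stood at 4.94, 4.43 and 11.1 FPKM, Myog at 2.01, 0.906 and 2.70 FPKM and Myf5 at 1.27, 1.02 and 0.832 FPKM. Pax7, the factor of muscle stem cells, stayed below 1 FPKM. The MEF2 factors, which act with the myogenic ones, were led by Mef2c at 133, 166 and 140 FPKM, followed by Mef2a at 37.1, 36.8 and 35.5 FPKM and Mef2d at 18.0, 18.1 and 18.1 FPKM. Mef2d was among the 10 steadiest genes at 10 FPKM or more and Mef2b was listed at 0.

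Factors tied to fast fibres were well represented. Tbx15, a T-box factor of glycolytic fibres, was listed at 97.8, 98.9 and 93.7 FPKM. The EYA cofactors of fast genes stood at 14.4, 21.8 and 17.1 FPKM for Eya4 and, for Eya1, at 7.15, 8.45 and 10.1 FPKM. Sox6, a repressor of slow genes, was listed at 32.3, 33.2 and 31.7 FPKM. Vgll2, a TEAD cofactor that is not counted here as a fast fibre factor, stood at 16.7, 15.2 and 23.0 FPKM. Prox1, which promotes slow genes, stayed below 1 FPKM in all libraries. In the NFAT class, the factors that calcineurin activates, Nfatc3 led with 9.42, 10.6 and 10.2 FPKM. Nfatc1, the member tied to slow fibres, stood at 5.18, 5.86 and 9.80 FPKM.

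The sum of the clock genes was the same in all libraries to within 1%, at 322, 321 and 324 FPKM. Of 21 listed genes 18 stood at 1 FPKM or more. The output factor Tef, a PAR-domain activator, led by the mean, with 66.8, 69.3 and 65.9 FPKM, and Dbp of the same family stood at 16.7, 13.1 and 15.1 FPKM. The repressors that recruit HDAC3 to clock genes, the REV-ERBs, were listed at 71.2, 61.9 and 60.2 FPKM for Nr1d2 and at 10.9, 16.3 and 15.7 FPKM for Nr1d1. The activators Clock, at 8.32, 9.0 and 7.15 FPKM, and Arntl, at 4.36, 6.17 and 5.08 FPKM, were lower, as was Per2, at 3.53, 2.89 and 3.87 FPKM. Ciart, a repressor of the clock, was the uneven member, at 8.88, 1.62 and 3.43 FPKM. With a single time point these levels say nothing of rhythm.

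Of 48 nuclear receptors 31 stood at 1 FPKM or more and 7 were listed at 0, among them Hnf4a of liver and gut. Nr3c1, the glucocorticoid receptor, was listed at 34.2, 38.3 and 35.0 FPKM. Esrra, a driver of mitochondrial genes, was listed at 12.1, 16.3 and 38.9 FPKM, and Nr4a1, which is induced by activity, at 16.9, 24.1 and 42.2 FPKM, so both were highest in replicate 3. The lipid sensor Ppara stood at 10.9, 6.58 and 7.56 FPKM and Ppard at 1.32, 2.35 and 2.95 FPKM.

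Of the 18 deacetylases 17 stood at 1 FPKM or more. Hdac3 itself was the highest by the mean, though not in replicate 3, at 33.3, 31.0 and 23.7 FPKM, followed by Hdac2 at 28.7, 26.3 and 23.8 FPKM and by Sirt2, a cytosolic sirtuin, at 17.4, 19.3 and 19.9 FPKM. Hdac1 stood at 2.98, 3.05 and 2.39 FPKM, well below Hdac2, its close paralogue. HDAC3 is active within corepressor complexes, and all 5 listed genes of these reached a mean of 1 FPKM. Ncor1, a scaffold, stood at 22.7, 23.5 and 21.3 FPKM. Gps2, another subunit, was listed at 18.2, 17.7 and 23.2 FPKM and Tbl1xr1 at 11.0, 10.4 and 10.2 FPKM.

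Among the metabolic coactivators, Lpin1, a phosphatidate phosphatase that also acts in the nucleus, was listed at 89.3, 80.2 and 85.2 FPKM. Ppargc1a, which encodes PGC-1alpha, the coactivator of mitochondrial genes, stood at 8.79, 13.7 and 13.0 FPKM, and Nrip1, a corepressor of such genes, at 15.2, 12.3 and 10.9 FPKM. Nfe2l1, a regulator of the proteasome, was the highest of the mitochondrial gene regulators, at 109, 116 and 123 FPKM. Atf4, the factor of the integrated stress response, was listed at 144, 125 and 137 FPKM. Klf9, a glucocorticoid-induced factor, led its family with 54.9, 44.7 and 49.3 FPKM. Tfb2m, a transcription factor of mitochondrial DNA, stood at 26.7, 23.7 and 21.5 FPKM and Nfe2l2, of the oxidative stress response, at 23.2, 20.7 and 20.9 FPKM. Of genes known for rapid induction, Fos was listed at 1.18, 1.93 and 3.48 FPKM and Egr1 at 0.611, 0.735 and 0.544 FPKM, and Atf3, of the stress response, at 3.34, 15.3 and 8.83 FPKM. Signalling factors were of middling level, with Stat5b, which carries the growth hormone signal, at 30.3, 31.9 and 40.8 FPKM, Smad3 at 26.1, 33.0 and 33.8 FPKM and Smad4 at 21.3, 21.5 and 23.7 FPKM. Of the hypoxia factors Epas1, abundant in vessels, stood at 21.2, 21.3 and 22.5 FPKM and Hif1a at 11.9, 12 and 10.6 FPKM. The FoxO factors, which switch on genes of atrophy and fasting, included Foxo4 at 12.3, 15.2 and 17.7 FPKM and Foxo1 at 6.46, 4.04 and 2.97 FPKM. Srf, the activator of actin genes, was listed at 6.96, 10.2 and 12.9 FPKM, and Id3, an inhibitor of myogenic factors, at 8.38, 8.53 and 22.5 FPKM.

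Of the splicing factors, the muscleblind gene Mbnl1 had the highest mean of all listed regulators, at 190, 175 and 161 FPKM, and its paralogue Mbnl2 stood at 123, 125 and 93.9 FPKM. Rbm24, another splicing factor of muscle, was listed at 57.5, 56.8 and 69.0 FPKM and Rbfox1 at 56.8, 50.2 and 57.3 FPKM.

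**Figure D3:**
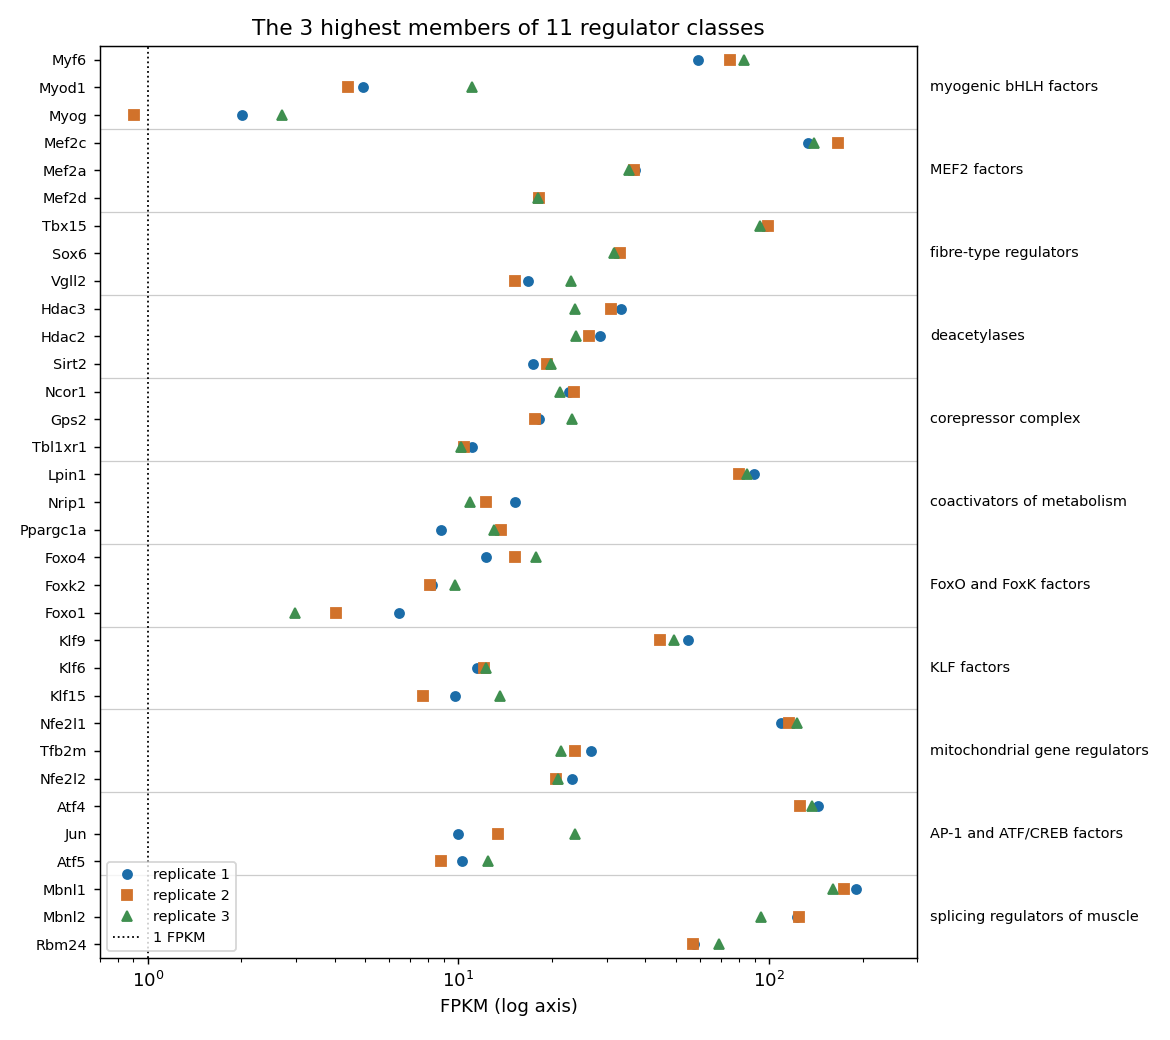
FPKM (x axis, log scale) of the 3 highest members of 11 regulator classes (y axis) in each of the 3 libraries, with a dotted line at 1 FPKM. Mbnl1 was the highest regulator, at 161 to 190 FPKM, and Mef2d lay within 18.0 to 18.1 FPKM in all 3 libraries.

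The label of the tissue was checked against marker genes, and the libraries were those of a fast muscle. Summed over 12 fast fibre markers the levels were 94584, 87940 and 84126 FPKM. Over 9 slow fibre markers they were 184, 112 and 153 FPKM, a ratio of 513, 782 and 549. The fast list holds Mybpc2, but the slow list leaves out its slow counterpart Mybpc1, which alone stood at 750, 818 and 570 FPKM. With Mybpc1 counted as slow the ratio would be lower. Liver markers were at or near 0. Markers of cells other than fibres and red cells, 86 genes, held 0.297% ± 0.0680 (SD, n = 3) of the FPKM sum. In a bulk sample, fewer cells of a type and less RNA per cell cannot be told apart.

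Markers of resident cells were low beside those of fast fibres. Fibroblast and fibro-adipogenic markers summed to 711, 504 and 561 FPKM, with the matrix protein gene Dcn, decorin, at 372, 198 and 197 FPKM. Endothelial markers summed to 129, 127 and 116 FPKM, with Pecam1 at 26.1, 25.5 and 20.9 FPKM, and smooth muscle and pericyte markers to 243, 201 and 178 FPKM, most of it from Rgs5, a pericyte gene. Macrophage markers summed to 76.3, 79.3 and 74.3 FPKM and adipocyte markers to 106, 96.1 and 82.6 FPKM. Satellite cell markers summed to 6.01, 7.38 and 7.69 FPKM, and lymphocyte markers to 0.551, 1.69 and 1.21 FPKM. The sums of the fibroblast, endothelial, smooth muscle, adipocyte, tendon and Schwann cell lists were highest in replicate 1, at less than 1.5 times the lowest library. Single genes carried some of these sums, since only 1 of 8 smooth muscle genes and 1 of 8 adipocyte genes were highest in that library.

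Blood cell genes differed far more. The 10 neutrophil markers summed to 5.68, 560 and 9.67 FPKM and all 10 were highest in replicate 2. S100a8, a calcium-binding protein abundant in neutrophils, was listed at 1.79, 240 and 4.37 FPKM and its partner S100a9 at 3.11, 222 and 5.06 FPKM. Ngp, a protein of neutrophil granules, stood at 0.168, 33.9 and 0.164 FPKM. Replicate 2 was thus alone in this signal, and it was 0.123% of its FPKM sum. Erythroid markers summed to 118, 277 and 60.9 FPKM and all 5 were highest in the same library, though Hba-a2 by a hair, at 0.0453 to 0.0454 FPKM. Adult beta globin is encoded by near-identical copies, and Hbb-b1 was listed at 103, 231 and 38.0 FPKM where Hbb-bs was listed at 37.8, 0.0104 and 74.0 FPKM. Hbb-b1, Hbb-bs and Hbb-bt together stood at 161, 273 and 125 FPKM, so the sum ranged less than either copy alone. Whether blood in the tissue accounts for these levels was not tested.

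**Figure D4:**
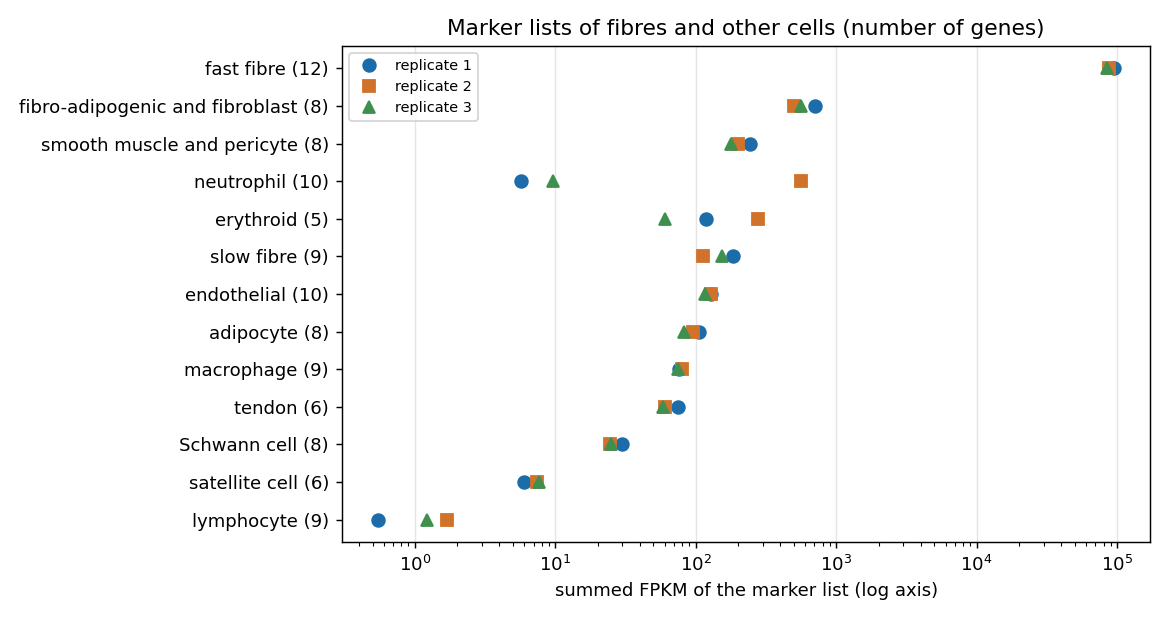
Summed FPKM (x axis, log scale) of 13 marker lists (y axis, with the number of genes in each list) in the 3 libraries. The neutrophil sum was 560 FPKM in replicate 2 against 5.68 and 9.67 FPKM in replicates 1 and 3, while the endothelial sums lay between 116 and 129 FPKM.

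The spread between libraries was small for most genes. Measured as the SD of log2(FPKM + 1) over the 3 libraries, its median was 0.17 over the 10544 genes at 1 FPKM or more. Of the 3930 protein-coding genes at 10 FPKM or more, 1820, or 46.3%, had a coefficient of variation under 10%. The highest and lowest library were 2-fold or more apart for 1202 genes at 1 FPKM or more, 11.4%. This count depended on the library left out, with 523 genes without replicate 1, 874 without replicate 2 and 427 without replicate 3. A gene's range cannot widen when a library is left out, so the lower counts follow in part from having fewer libraries. Over all 3 libraries the share with such a range was 21.3% of protein-coding genes from 1 to 3 FPKM and 8.87% from 3 to 10 FPKM. It was 4.75% from 10 to 30 FPKM, 4.8% from 30 to 100 FPKM and 6.51% from 100 to 1000 FPKM, and 1 of 50 genes above that.

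Most of the 10 steadiest genes at 10 FPKM or more stood close to that minimum. Kidins220, a membrane scaffold, stood at 11.8 FPKM in all 3 libraries. Rpf2, a ribosome assembly factor, stood at 10.7 FPKM and Ufl1, an enzyme that attaches the modifier UFM1, at 10.2 to 10.3 FPKM. Rragd, a GTPase that signals amino acids to mTORC1, was listed at 97.3, 97.8 and 97.1 FPKM and Bckdhb, of branched-chain amino acid breakdown, at 17.5, 17.4 and 17.3 FPKM. Sugp2, Wdr36, Actl6a, Mef2d and Cpt1b completed the 10.

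The 15 least even rows at 10 FPKM or more were all short RNAs listed at 0 in at least 1 library. Mir6992 was listed at 0, 939 and 0 FPKM, Snora64 at 0, 670 and 0 FPKM and Mir719 at 283, 0 and 994 FPKM. On rows of such length a few reads make a high FPKM, and these values are therefore not a measure of a change.

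Protein-coding genes of uneven level, a selection added after their values were seen, fell into a few kinds. The 5 with the widest spread were 4 neutrophil genes and Hbb-bs. Replication-dependent histone genes were also among them, with Hist1h4d at 3.09, 8.67 and 99.9 FPKM and Hist1h1c, a linker histone, at 15.5, 20.9 and 74.3 FPKM. The 69 histone cluster genes together summed to 126, 218 and 513 FPKM, with 15 of the 23 at 1 FPKM or more highest in replicate 3. Rpph1, the RNA of ribonuclease P, which like most of these histone messages has no poly(A) tail, was listed at 173, 488 and 3338 FPKM. The share of RNA without a tail in each library was not measured, and its part in these values was not tested.

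Among muscle genes, Ankrd1, a stretch-induced ankyrin repeat gene, was listed at 5.43, 28.3 and 29.8 FPKM and Tnfrsf12a, the receptor of TWEAK that is induced in injured muscle, at 11.3, 46.1 and 56.0 FPKM. In both genes replicate 1 was the low library. G0s2, an inhibitor of fat breakdown, was listed at 17.4, 6.08 and 35.6 FPKM and Ddit3, the stress factor CHOP, at 8.22, 17.7 and 37.9 FPKM. Lars2, the mitochondrial leucyl-tRNA synthetase, stood at 792, 163 and 201 FPKM. Rpl36 was listed at 49.4, 120 and 517 FPKM and Rpl26 at 23.4, 23.5 and 0 FPKM, both ribosomal protein genes with many processed copies in the genome. Nnt, the mitochondrial transhydrogenase, part of whose gene is deleted in the C57BL/6J substrain, was listed at 25.4, 6.40 and 5.76 FPKM. The labels name no substrain.

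The libraries differed in how often each lay between the others. Replicate 2 held the middle value for 53.9% of the protein-coding genes at 10 FPKM or more, replicate 1 for 23.5% and replicate 3 for 22.6%. Of the 194 such genes with a 2-fold range, 4.94% of the 3930, replicate 3 stood above the other two in 104 and replicate 1 below them in 53, by the larger of the gaps on the log2 scale. Each other pattern counted 8 to 11 genes. Pearson's r of log2(FPKM + 1) across these genes, which are not independent replicates, was 0.974 for replicates 1 and 2, 0.957 for 1 and 3 and 0.970 for 2 and 3.

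**Figure D5:**
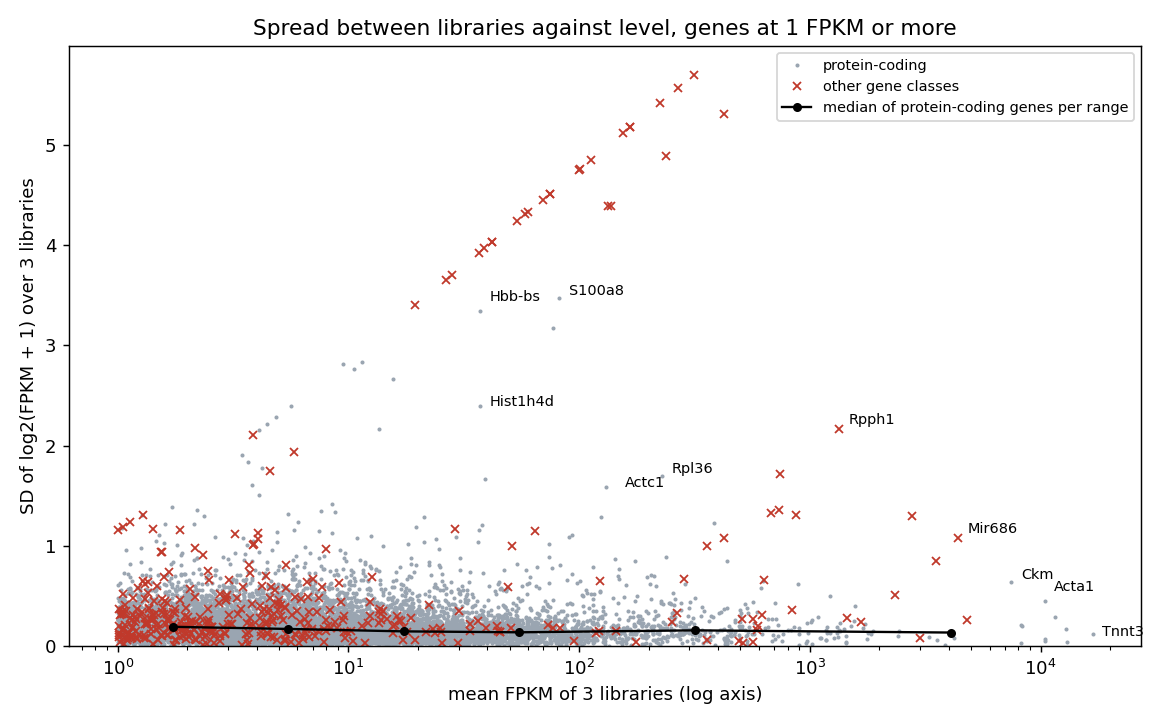
SD of log2(FPKM + 1) over the 3 libraries (y axis) against mean FPKM (x axis, log scale) for the 10544 genes at 1 FPKM or more. Protein-coding genes are grey points with their median per range of level as a line, and other gene classes are red crosses. The protein-coding median lies between 0.14 and 0.19 in all ranges, while short RNA rows reach above 5.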

How the data were processed

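RNA from resting quadriceps of wild-type mice was sequenced in 3 libraries. The authors aligned reads to mm9 with TopHat2 and computed FPKM with Cuffdiff, per the submitters' processing notes. The sources used here do not give versions, gene annotation, strandedness, the scaling between libraries or read totals. The deposited FPKM were used as they stand, the 3 knockout columns of the same table were not used, and neither were the p-values of the authors' knockout comparison that the deposited table holds or the peak files. Python 3.11.15 with pandas 2.3.3 and numpy 2.4.6 computed means and SDs over the 3 libraries, shares of the FPKM sum, shares within families and the SD of log2(FPKM + 1). A gene counted as detected at a mean of 1 FPKM. No test was made, since there is 1 group. Simulated libraries served to check the spread. The SD was set at 0.2 on the log2 scale for 10544 genes, some of them shifted 8-fold in 1 library. Over the unshifted genes at 10 FPKM or more the median found was 0.156. The median SD of 3 values lies below the SD set. At 10 FPKM or more the genes shifted 8-fold all ranked on top. The shift was far above the noise set, which was equal at all levels. This outcome therefore checks the calculation only and says nothing of the genes named for their spread.

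The genes named were the 20 highest by mean FPKM, family members with 5% or more of their family or the top 2, the 3 highest of each regulator class, cell markers, and, at 10 FPKM or more, the 15 largest and 10 smallest SDs, besides members named for their known role. Some genes that this rule selects are not reported here. The genes, lists and families were chosen with earlier results of these data known. Gene classes, promoters and mature miRNAs are from RefSeq (GRCm38.p6). Alternatives left out each library, moved the FPKM minimum and the pseudocount, rescaled the libraries and kept protein-coding rows only.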

Additional observations from a re-analysis of the deposited data

How the results depend on the processing

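Without replicate 1 another gene led in 3 of the 68 families, with Ppp1r3a at 51.7%, Atp5g1 at 41.1% and Sgca at 31.8%, and without replicate 3 in 1, with Eef1a1 at 52.7%. Of 48 settings of 8 summary values 12 moved, a count by over 1.5 times and a share or a median SD by over its own spread, and these are given here. The spread of the median SD was that of its own leave-one-out values. A mean share over 3 libraries can hardly move by its own SD when 1 is left out, and rescaling a library leaves its shares unchanged. Such settings could hardly be counted as moved, so the tally is no measure of robustness. Leaving out 1 library in turn gave a median SD of log2(FPKM + 1) between 0.12 and 0.17 and a count of genes with a 2-fold range between 427 and 874. The lower counts follow in part from having fewer libraries, since a gene's range cannot widen when a library is left out. With each library rescaled to a sum of 1000000 the median SD was 0.20 and the 2-fold genes numbered 1832, of a larger number of genes that pass 1 on that scale, and with a pseudocount of 0.1 FPKM the median SD was 0.20. With a minimum of 5 FPKM, 6163 genes, 119 regulators and 407 genes with a 2-fold range remained counted. Over protein-coding rows only, chosen after seeing the data, the 10 highest genes held 25.9% and the gene groups 58.8% of the sum. Shares weighted by protein length were not run, as no protein table was used here. No paired analysis was possible because only 1 group was described. Read totals are unknown, so no counting error is given, and low genes are limited by depth.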

Other observations

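Genes of the excitable membrane kept to the muscle paralogues as well. Scn4a, the sodium channel of skeletal muscle, was listed at 54.1, 57.3 and 55.7 FPKM in replicates 1, 2 and 3 and held 98.9% ± 0.0475 (SD, n = 3) of voltage-gated sodium channel FPKM. Of the acetylcholine receptor, which sits at the nerve contact, Chrnb1 was listed at 14, 15.4 and 11.0 FPKM, the adult subunit Chrne at 3.92, 5.55 and 4.29 FPKM and the fetal subunit Chrng at 0, 0.112 and 0.0911 FPKM. The adult subunit was above the fetal one in each library.

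Signalling kinases and chaperones gave a similar picture of muscle forms. Prkaa2 held 91.5% ± 1.11 of the catalytic subunits of AMP-activated protein kinase and Prkab2 97.3% ± 0.440 of its beta subunits, while Akt2, the insulin-signalling form, held 77.2% ± 4.55 of AKT. Among the small heat shock proteins, Cryab, alphaB-crystallin, a chaperone of desmin, was listed at 379, 568 and 565 FPKM and Hspb1 at 48.0, 110 and 120 FPKM. Both were lowest in replicate 1, as were Ankrd1 and Tnfrsf12a, and no cause was tested.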
